A study of Mus musculus with 20 samples.

Results

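Footprints of 80S ribosomes that carried the initiation factor eIF3 were set against footprints of all ribosomes in fed, untreated control fibroblasts. The comparison used the 2 eIF3-80S libraries and the 2 Ribo-seq libraries that are titled as fed controls, out of 20 libraries in the series, and joined them by transcript. Of 12506 transcripts listed for any of these libraries, 3842 were listed in both eIF3-80S libraries and 10024 in both Ribo-seq libraries. The members are the 3839 transcripts listed in all 4, out of 15354 in the series as a whole. A transcript enters only if it had at least 5 reads in each eIF3-80S library, so those that were scarce on eIF3-bound ribosomes are missing, and the members are not all transcripts that these cells translate.

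Ribosome profiling (Ribo-seq) sequences the stretch of mRNA that a ribosome shields from RNase, so the reads on a coding sequence reflect how many ribosomes sit on it. eIF3 is the multi-subunit factor that binds the small ribosomal subunit, helps to bring in the initiator tRNA and the mRNA, and keeps the large subunit away until the start codon is found. In mammalian cells some eIF3 stays on the 80S ribosome after the subunits have joined, while the first codons are read, and ribosomes that still hold it can resume scanning after a short open reading frame. Footprints of eIF3-bound 80S ribosomes therefore sample a subset of translating ribosomes, and the comparison asks on which transcripts that subset lies.

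Both groups were mouse embryonic fibroblasts (MEFs), connective tissue cells grown out from embryos, of strain C57BL/6J, grown in DMEM with 10% fetal bovine serum. The series' design text calls the cells without the Ogt knockout wild type. None of the 4 libraries came from cells given 4-OHT, Thiamet-G or amino acid starvation. The other libraries of the series cover those treatments, which alter O-GlcNAc, a sugar modification of intracellular proteins, or withdraw amino acids. Nothing in the labels says that the 2 replicates of an assay were grown separately. The p-values below thus cover only how far the libraries of an assay lie apart, and that distance may be technical. Each lysate pooled several culture dishes. Fragments of 20 to 70 nt were cut from the gel for eIF3-80S and fragments of 25 to 35 nt for Ribo-seq, so association with eIF3 and the choice of fragment size cannot be told apart in any difference below. The sources used here do not describe how eIF3-bound ribosomes were captured, and no mock capture was analysed here.

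The eIF3-80S libraries were much the shallower. They held 148884 and 199785 reads on transcripts, against 3350944 and 3030545 in Ribo-seq, and the median listed transcript had 12 and 13 reads, against 100 and 81. Transcripts that a file did not list took 12.91% and 9.28% of eIF3-80S reads, against 0.49% and 0.02% of Ribo-seq reads. Both eIF3-80S files and the file of Ribo-seq replicate 1 begin almost wholly at 5 reads per transcript, while the file of Ribo-seq replicate 2 lists transcripts from 1 read, with 11.81% of its entries under 5. Values are RPKM, read numbers divided by coding length and library total, and differences are log2 of eIF3-80S over Ribo-seq after rescaling of the libraries by the median ratio, with 1 RPKM added. RPKM is relative to its library, so fewer eIF3-bound ribosomes overall would not be seen in it. Transcript identifiers could not be paired with gene names (0 of 15354 matched), so cell type markers and pathway lists were not analysed here, and transcripts are described by level, reads and coding length. For the same reason mitochondrially encoded transcripts could not be set apart from the rest. Identifiers can be isoforms or overlapping genes that share reads, and the assignment of such reads is not described in the sources used here.

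Ribosomes bound by eIF3 were distributed differently over these transcripts than ribosomes at large. Among the listed transcripts they held relatively more footprints on long coding sequences and relatively fewer on short ones of high Ribo-seq level. For coding sequences over 3000 nt the median difference was nearer to 0 on expected depth (0.145) and under quantile normalization (0.0462), as described below. Ribo-seq level does not separate the amount of an mRNA from how well it is translated. Limma called 345 of 3839 transcripts (8.99% of those tested) at an adjusted p under 0.05. Of these, 181 (4.71%) were higher in eIF3-80S and 164 (4.27%) were lower. In 1221 transcripts (31.8%) both eIF3-80S libraries lay above both Ribo-seq libraries, and in 1213 (31.6%) both lay below. All 345 called transcripts were among those without overlap. The median difference over all tested transcripts was -0.01 after rescaling.

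The 2 assays differed by more than replicates did, but replicates were also far apart. The difference between assays had an SD of 1.20 on the log2 scale across the 3839 transcripts. Replicate 1 minus replicate 2 had an SD of 0.72 among eIF3-80S libraries and 0.98 among Ribo-seq libraries. Across transcripts, levels correlated at r = 0.922 between the eIF3-80S replicates and 0.917 between the Ribo-seq replicates, and at 0.80 to 0.86 between an eIF3-80S and a Ribo-seq library (n = 3839 transcripts, which are not independent replicates). The number of calls depended on each of the 4 libraries. It was 36 higher and 10 lower without eIF3-80S replicate 1, 33 and 1 without eIF3-80S replicate 2, 559 and 446 without Ribo-seq replicate 1, and 64 and 102 without Ribo-seq replicate 2, which leaves only files that begin at 5 reads. All 181 stayed above 0 and all 164 below 0 in each of these fits, and likewise in every one of the other 10 alternatives that tested them. Because none of the 345 overlapped between assays, leaving out 1 library could hardly change a sign. The other alternatives reuse the same values, so the kept signs are no separate support.

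**Figure D1:**
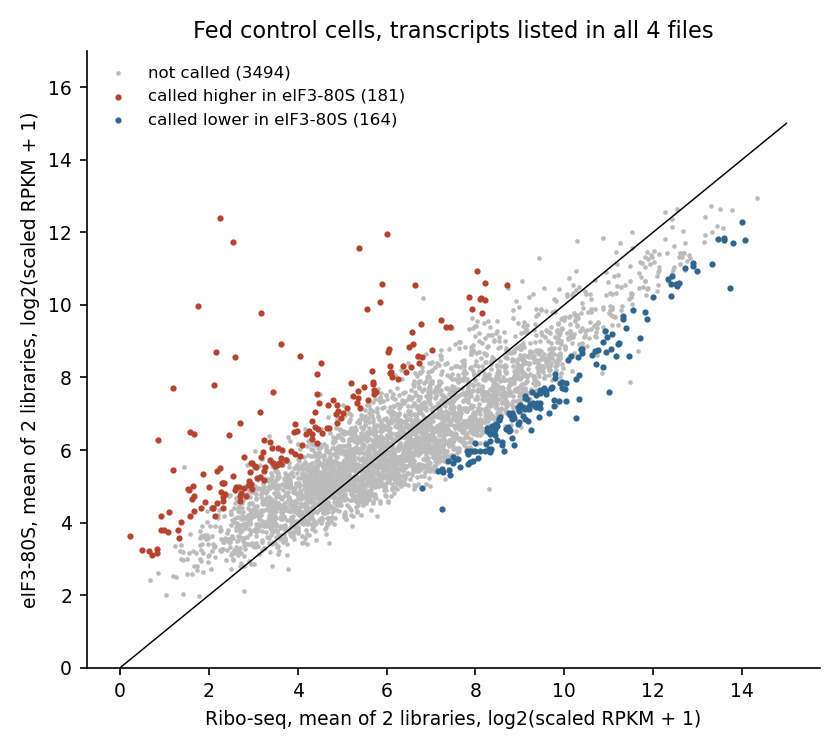
Mean level of each of the 3839 transcripts in eIF3-80S (vertical) against Ribo-seq (horizontal), as log2(scaled RPKM + 1) over 2 libraries each, with the line of equality. Red points are the 181 transcripts called higher in eIF3-80S and blue points the 164 called lower by limma. The higher ones spread over low and middle Ribo-seq levels, with a few far above the rest, and the lower ones sit at high Ribo-seq levels.

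The transcripts called higher on eIF3-bound ribosomes tended to be long and of low Ribo-seq level. Their differences ranged from 3.07-fold to 1122-fold with a median of 5.12-fold, and 146 of 181 exceeded 4-fold. Their median level was 90.6 RPKM in eIF3-80S, against 11 RPKM in Ribo-seq, which corresponds to a median of 48 reads and 124 reads. Their median coding length was 2556 nt, against 1350 nt for all tested transcripts. Coding sequences over 3000 nt made up 75 of them (41.4%, against 16.1% of all tested), and 0 were at most 600 nt long (against 16.3%). Together the 181 took 26.3% and 14.1% of the reads of the eIF3-80S libraries, and 1.45% and 1.28% of those of the Ribo-seq libraries. The rule of listing bears on this group. From the Ribo-seq level, 86 of the 181 (47.5%) would have had under 5 reads in at least 1 eIF3-80S library if the assays had been equal, against 13.8% of all tested transcripts, so these could be tested only because they were high in eIF3-80S. Another 24 would have had at least 20 reads in both, with a median difference of 2.29.

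The highest called transcript was ENSMUST00000130864, with a coding length of 4920 nt. It had 26479 and 1149.6 RPKM in the eIF3-80S libraries, against 2.67 and 5.03 RPKM in the Ribo-seq libraries. These are 19396 and 1130 reads, against 44 and 75 reads. In eIF3-80S replicate 1 this 1 transcript took 13% of all reads, and in replicate 2 it took 0.566%. Both eIF3-80S libraries thus lay far above both Ribo-seq libraries, while the eIF3-80S replicates themselves differed widely, and the size of the difference is set by which of them is used. The log2 difference was 10.13, with an SE of 1.12 and an adjusted p of 0.000768 by limma, and it ran from 7.77 to 12.51 when single libraries were left out. Limma-voom, run on whole reads, gave 10.55 with an adjusted p of 0.0606, which did not pass the threshold. In the whole series it had 875.9 to 26479 RPKM with a median of 4617 in the 8 eIF3-80S libraries, and 2.30 to 16.3 RPKM with a median of 4.92 in the 12 Ribo-seq libraries, so no library of one assay overlapped the other.

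The next was ENSMUST00000110603, with a coding length of 1869 nt. It had 5344 and 2247 RPKM in eIF3-80S, against 4.79 and 4.59 RPKM in Ribo-seq, from 1487 and 839 reads against 30 and 26 reads. The difference was 9.18 (SE 0.55, limma adjusted p = 8.37e-06). It was called in 14 of 14 alternatives, at 8.43 to 9.92. Across the series its levels were again apart, with 311.2 to 5344 RPKM in eIF3-80S and 1.66 to 31.0 RPKM in Ribo-seq.

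These 2 lead a small group of extreme transcripts. The 12 with the largest differences were 39.6-fold to 1122-fold higher in eIF3-80S, with coding lengths of 1368 to 6693 nt (median 4339.5 nt), and 9 of them were over 3000 nt long. They accounted for 18.8% and 5.25% of eIF3-80S reads, against 0.0481% and 0.0652% of Ribo-seq reads. The first of these shares comes mostly from the single transcript described above.

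The transcripts called lower on eIF3-bound ribosomes tended to be short and of high Ribo-seq level. Their differences ranged from 2.94-fold to 10.6-fold with a median of 3.97-fold. Their median level was 159.8 RPKM in eIF3-80S, against 647 RPKM in Ribo-seq. This rests on a median of 13 reads in eIF3-80S, against 917 in Ribo-seq. Their median coding length was 459 nt. Of the 163 whose length was recovered, 120 (73.6%) were at most 600 nt long and 0 were over 3000 nt. Together the 164 took 2.58% and 2.93% of eIF3-80S reads, and 10.8% and 10.3% of Ribo-seq reads. From the Ribo-seq level, 155 of the 163 would have had at least 20 reads in both eIF3-80S libraries. The listing floor had a part in this. A lower call kept at least 5 reads in each eIF3-80S library while at least 2.94-fold lower, so only well-read transcripts could be called. With unlisted transcripts taken as 0, 2724 were called lower, of which 545 were at most 600 nt and 142 over 3000 nt long.

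The lowest of the called transcripts was ENSMUST00000082408, with a coding length of 681 nt. It had 197.3 and 198.5 RPKM in eIF3-80S, against 535.5 and 7519 RPKM in Ribo-seq, from 20 and 27 reads against 1222 and 15517 reads. The eIF3-80S replicates were alike and the Ribo-seq replicates differed widely. Its difference of -3.41 (SE 0.92, limma adjusted p = 0.0456) became -1.53 without Ribo-seq replicate 2 (limma adjusted p = 0.0893), and it passed the threshold in 5 of 14 alternatives. Fits that leave out a library have 1 library in an assay, which is assumed to vary like those of the other assay. Across the series its levels lay apart, with 53.6 to 261.3 RPKM in the 7 eIF3-80S libraries that list it and 300.7 to 7519 RPKM in the 12 Ribo-seq libraries. Whether this transcript is encoded in the nucleus or in mitochondria could not be told here.

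The next lowest was ENSMUST00000167741, with a coding length of 405 nt. It had 82.9 and 173.0 RPKM in eIF3-80S, against 1148 and 1245 RPKM in Ribo-seq. These are 5 and 14 reads, against 1558 and 1528 reads, so its eIF3-80S level is known only roughly. The difference was -3.38 (SE 0.47, limma adjusted p = 0.00361), it stayed between -3.78 and -2.95 in the alternatives, and it passed the threshold in 12 of 14. In fed Thiamet-G cells it had 199.3 RPKM in eIF3-80S, against 922 and 954.8 RPKM in Ribo-seq, and in fed Ogt knockout cells 95.8 RPKM, against 310.3 and 181.1 RPKM, so it was again the lower in eIF3-80S. In starved control cells it had 152.8 RPKM in the 1 eIF3-80S library that lists it, which lies between the 114.9 and 559.3 RPKM of Ribo-seq. In starved knockout cells it had 182.8 RPKM in eIF3-80S, against 110.6 and 29.2 RPKM in Ribo-seq, the opposite order. It was not listed in eIF3-80S of starved Thiamet-G cells.

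Those 2 belong to the 12 lowest, which were 6.08-fold to 10.6-fold lower. Their coding lengths were 78 to 1578 nt (median 381 nt), and 10 were at most 600 nt long. They had 5 to 27 reads in an eIF3-80S library and 474 to 15517 reads in a Ribo-seq library.

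**Figure D2:**
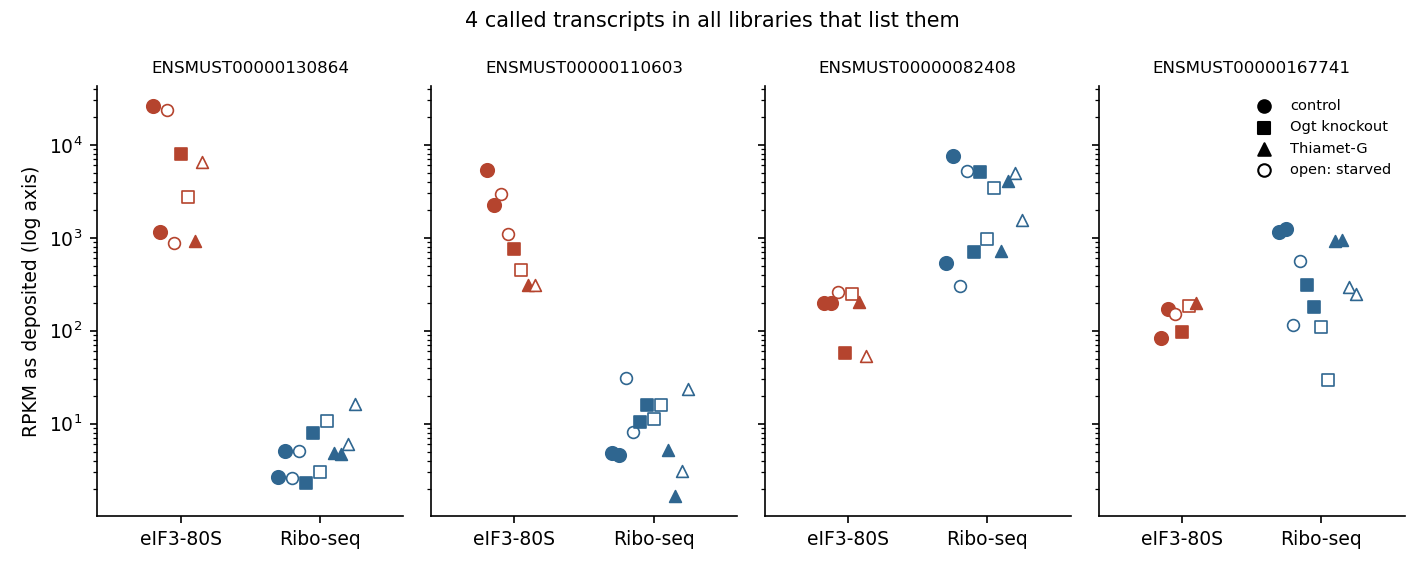
RPKM on a log axis of the 4 transcripts named above in every library that lists them, eIF3-80S left of Ribo-seq in each panel. Circles are control, squares Ogt knockout and triangles Thiamet-G cells, and open symbols are starved cells. The first 2 transcripts lie apart between assays in all libraries, and the third does so in the 7 eIF3-80S libraries that list it. The last overlaps between assays in starved control cells and lies higher in eIF3-80S in starved knockout cells.

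Across all members the difference between assays followed coding length, an attribute that did not enter the choice of members directly. It entered indirectly, because long transcripts of low level could be listed only if they were high in eIF3-80S. Coding sequences of at most 600 nt had a median difference of -1.15, and 51 of 626 (8.15%) were above 0. Those above that and up to 1500 nt had a median of -0.31, with 565 (37.6%) above 0. Those from there up to 3000 nt had a median of 0.51, with 773 of 1093 (70.7%) above 0. Those over 3000 nt had a median of 0.88, with 523 of 616 (84.9%) above 0. Of these 616, 569 were in the lowest of the groups by level described below. Taken on expected depth instead, as described below, the longest class had a median of 0.145 (n = 55). The order of the 4 classes was the same for each pair of 1 eIF3-80S and 1 Ribo-seq library, all under the same rule of listing. Medians of the shortest class ran from -1.52 to -0.76 over those pairs and medians of the longest from 0.73 to 1.04.

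The calls were spread over the classes as follows. In the shortest class 0 transcripts were called higher and 120 (19.2%) lower, and in the longest 75 (12.2%) were called higher and 0 lower. In between, 35 were called higher and 42 lower in the class up to 1500 nt, and 71 higher and 1 lower in the class up to 3000 nt. Long transcripts of low level could enter only if they were high in eIF3-80S, so these counts do not support the order by length. Of the 24 higher calls with at least 20 expected reads, 5 were over 3000 nt and 0 at most 600 nt long, and of the 155 such lower calls 0 and 117 were. Among all 1329 such transcripts 44 were over 3000 nt and 494 at most 600 nt long. Quantile normalization, which gives every library the same distribution of values, reduced both ends: the median was -0.51 for the shortest class and 0.0462 for the longest, where the median of all transcripts was -0.12. With a pseudocount of 5 the median of the longest class was 0.64.

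**Figure D3:**
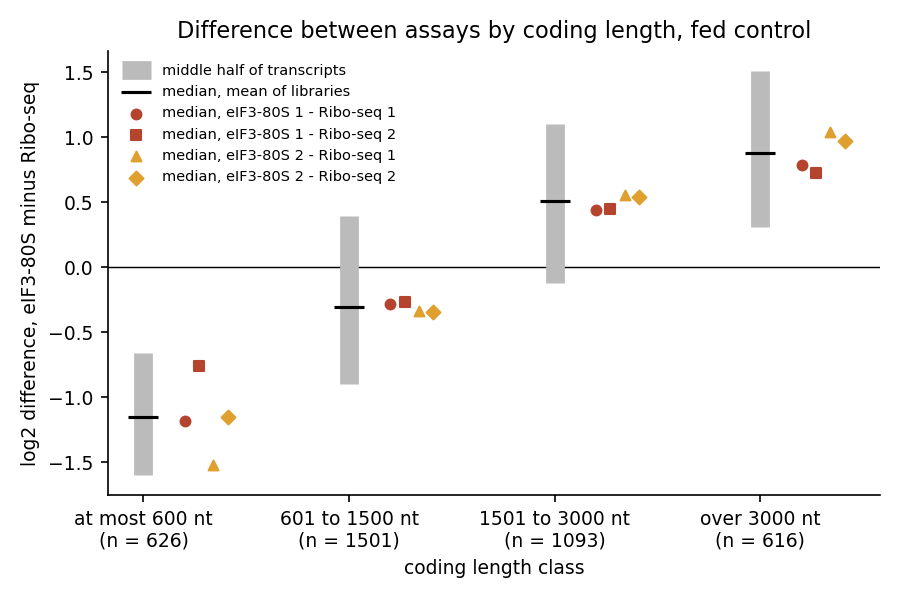
Log2 difference of eIF3-80S minus Ribo-seq by coding length class in fed control cells. Grey bars span the quartiles of transcripts, black dashes are medians of the mean over libraries, and symbols are medians for each pair of 1 eIF3-80S and 1 Ribo-seq library. Medians go from -1.15 at most 600 nt to 0.88 over 3000 nt, and all 4 library pairs keep that order.

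Length was tied to level among these transcripts. A short coding sequence needs a higher RPKM to reach 5 reads, and the part of the listing floor in that tie was not tested. Ribo-seq of fed Thiamet-G cells, which shares no library with the comparison, served as a separate measure of level. Across transcripts the difference had a Spearman rho of 0.633 with coding length (n = 3836) and of -0.681 with that level (n = 3831), and length and level had a rho of -0.862 (n = 3828). These 3 values share the same transcripts and the same listing floor, and are a description. When the transcripts were split by that level into 3 groups of 1277, the class medians within the middle group (32.9 to 149 RPKM) were -0.47 (n = 31), -0.18 (n = 736), 0.19 (n = 467) and 0.19 (n = 43), from short to long. Within the highest group (149 to 20129 RPKM) they were -1.18 (n = 594), -0.64 (n = 631) and 0.36 (n = 48) for the first 3 classes, and the longest held 1 transcript, at -0.90. Within the lowest group (0.3 to 32.7 RPKM) they were 0.81 (n = 133), 0.75 (n = 574) and 0.93 (n = 569) for the last 3 classes, with no order by length. The order by length was thus seen at middle levels, where the medians of the 2 longest classes were both 0.19, and over the first 3 classes at high levels.

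Transcripts were also taken on their expected depth rather than on being listed, so that the floor bears less on them. Among transcripts listed in both Ribo-seq libraries, 1495 would have had at least 20 reads in both eIF3-80S libraries at the level of fed Thiamet-G Ribo-seq, and 93.1% of them were listed in both. With unlisted values set to 4 reads, the medians from the shortest to the longest class were -1.26 (n = 517), -0.67 (n = 733), 0.23 (n = 190) and 0.14 (n = 55). The shares above 0 were 5.22%, 22.8%, 56.3% and 58.2%. Over all 1495 the median was -0.82, with 22.3% above 0, against a median of -0.01 over the listed transcripts. These 1495 were chosen for a high Ribo-seq level, which went with lower differences. The median of the shortest class was as low as among the listed transcripts, but it lay nearer to the median of its own set. Measured against 0, the excess on the longest class was smaller than in the listed ones. With at least 50 expected reads the medians were -1.24 (n = 215), -0.62 (n = 216) and 0.30 (n = 33), and the longest class, at -1.10, held 6 transcripts.

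The distribution of reads gave the same picture as the differences per transcript. Coding sequences of at most 600 nt took 20.0% and 19.8% of the reads on tested transcripts in eIF3-80S, against 47.6% and 38.1% in Ribo-seq. Both eIF3-80S shares lay below both Ribo-seq shares, and the means were 19.9% ± 0.0876 and 42.8% ± 6.68 (SD, n = 2 each). A two-sided exact permutation test gave p = 0.333, which is the smallest p that 2 against 2 libraries allow. Coding sequences over 3000 nt took 28.6% and 17.7% of eIF3-80S reads, against 4.32% and 5.21% of Ribo-seq reads, again without overlap (means 23.2% ± 7.71 and 4.77% ± 0.626, SD, n = 2 each, exact permutation p = 0.333). Without ENSMUST00000130864 those shares were 15.4% and 17.1% in eIF3-80S, against 4.32% and 5.20% in Ribo-seq, so the excess did not rest on that transcript. In the class between 1500 and 3000 nt the shares were 20.7% and 25.0% in eIF3-80S, against 11.5% and 17.1% in Ribo-seq (exact permutation p = 0.333). Between 600 and 1500 nt they were 30.7% and 37.5% in eIF3-80S, against 36.6% and 39.5% in Ribo-seq, which overlap (exact permutation p = 0.667).

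**Figure D4:**
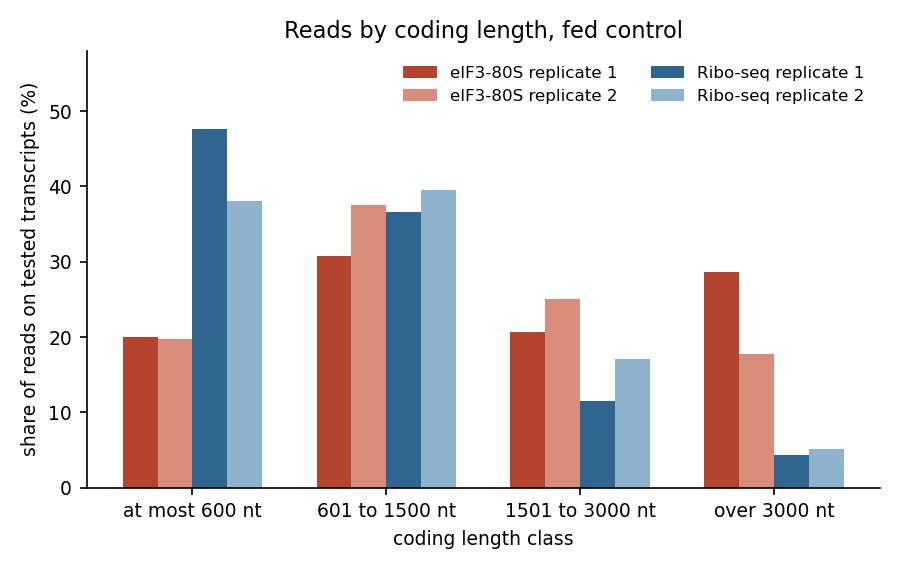
Percent of reads on the tested transcripts that fell in each coding length class, with 1 bar per fed control library, eIF3-80S in red and Ribo-seq in blue. The shortest class takes 20.0% and 19.8% of eIF3-80S reads, against 47.6% and 38.1% of Ribo-seq reads, and the longest class reverses that order.

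The libraries of the other conditions share no sample with these and show how far the pattern recurs. Over all transcripts with recovered reads, coding sequences of at most 600 nt took 12.1% to 20.1% of reads (median 18.1%) in the 8 eIF3-80S libraries of the series, and 21.1% to 43.2% (median 28.1%) in the 12 Ribo-seq libraries, with no overlap. Those over 3000 nt took 18% to 30.2% (median 22.5%) in eIF3-80S and 5.32% to 9.64% (median 7.35%) in Ribo-seq, also with no overlap. Both ranges include the fed control libraries. The shares leave out reads on unlisted transcripts, which were 3.27% to 32.6% of eIF3-80S reads and at most 2.71% of Ribo-seq reads. At the short end the ranges come close, at 20.1% and 21.1%, and the part of the listing floor in that gap was not tested.

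The transcripts called higher in fed control cells were also mostly higher in eIF3-80S under the other conditions. In fed Thiamet-G cells, given a drug that blocks the removal of O-GlcNAc, 176 of the 178 that were listed lay above 0, with a median of 2.32. In starved Thiamet-G cells it was 157 of 160 (median 1.98), in fed Ogt knockout cells 159 of 166 (median 1.36), in starved control cells 106 of 116 (median 1.25) and in starved knockout cells 151 of 179 (median 1.12). Of the tested transcripts listed in a condition (1738 in starved control cells), 50.3% to 50.6% lay above 0. Rescaling by the median ratio largely sets that share, so it is a weak background. The transcripts counted here again had to be listed in eIF3-80S, which favours values above 0 among those of low level. Those called lower had medians of -1.54 in fed Thiamet-G cells (164 of 164 below 0), -1.23 in starved Thiamet-G cells (133 of 136), -0.94 in fed knockout cells (146 of 152), -0.66 in starved control cells (61 of 71) and -0.64 in starved knockout cells (126 of 162). Each of these conditions has 1 eIF3-80S library except starved control cells, which have 2, so a difference between conditions was not tested.

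The order of single libraries was compared over transcripts listed in all 16 other libraries, which were 112 of the 181 called higher, 70 of the 164 called lower and 1675 of the 3839 tested. For 34 of the 112 (30.4%) all 6 other eIF3-80S libraries lay above all 10 other Ribo-seq libraries, as against 60 of the 1675 (3.58%). Of the 12 highest, 9 were listed in all 16 and this held for 9. For 11 of the 70 called lower (15.7%) all 6 lay below all 10, as against 42 of the 1675 (2.51%). All of these transcripts had to be listed in every eIF3-80S library. Those of low Ribo-seq level could meet that only if they were high in eIF3-80S, so the order of the higher ones is partly set by that choice. The 1675 include the called transcripts and were not matched to them for level, so the shares are a description.

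The length pattern recurred with a different size at its short end. Among 1675 transcripts listed in all 20 libraries, the 300 of at most 600 nt had median differences of -1.22 in fed control, -1.03 in fed Thiamet-G and -0.86 in starved Thiamet-G cells, and of -0.51 in starved knockout, -0.45 in starved control and -0.29 in fed knockout cells. The 256 over 3000 nt had medians of 0.88 in fed control, 0.90 in starved control, 0.98 in fed knockout, 1.05 in starved knockout, 1.13 in fed Thiamet-G and 1.32 in starved Thiamet-G cells. All 6 conditions were thus below 0 at the short end and above 0 at the long end. These transcripts needed at least 5 reads in all 8 eIF3-80S libraries, of which starved control replicate 1 held only 52148 reads. Long transcripts of low level could enter only if they were high in eIF3-80S. The values above 0 at the long end are therefore partly set by that choice and are no separate support. The fed control value at the short end was the lowest of the 6 and was not tested against the others.

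**Figure D5:**
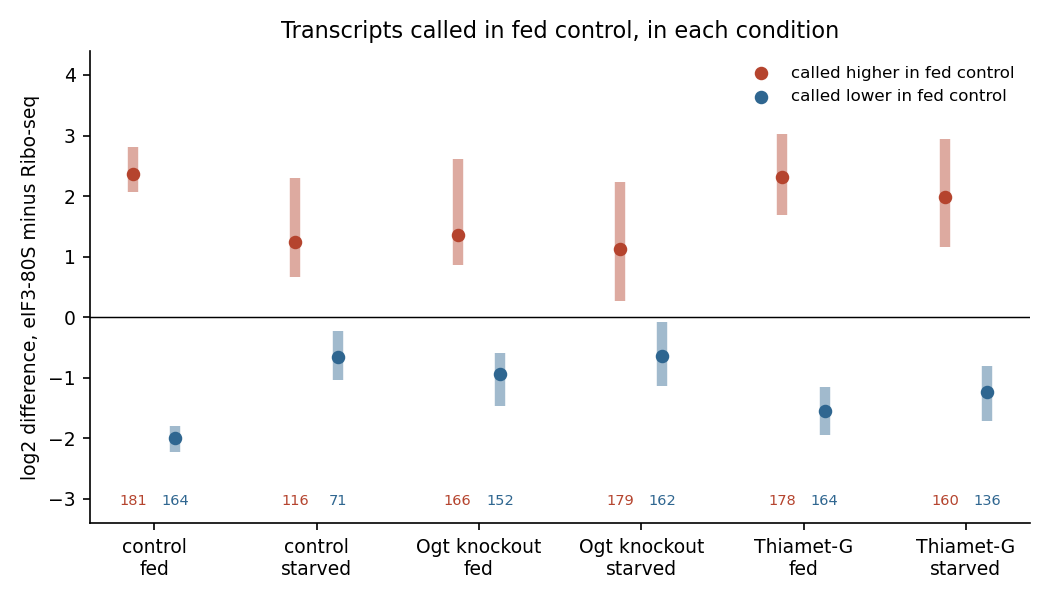
Log2 difference of eIF3-80S minus Ribo-seq, in each condition, of the transcripts called higher (red) and lower (blue) in fed control cells. Points are medians over transcripts, bars span the quartiles, and the numbers at the bottom count the transcripts listed there. Red medians lie above 0 and blue medians below 0 in all 6 conditions, nearest to the fed control values in fed Thiamet-G cells.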

How the data were processed

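Each library has 1 file, in which the authors deposited transcripts and their RPKM. Per the submitters' processing notes, cutadapt, STAR and GRCm38 were used. Counter, annotation release and filters: not given in the sources used here. RPKM values of a transcript were whole multiples of what 1 read is worth, which gave whole reads, library totals and coding lengths (12232 of 15354 transcripts, 99.86% of checked lengths being multiples of 3, relative distance to whole numbers at most 5.1e-15). In each library 93.02% to 99.93% of values were recovered. The recovery and the fit were tested on simulated data. Lengths are inferred, not annotated.

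Libraries were rescaled on the median of their ratios to the transcript's geometric mean (factors 0.9475 and 1.113 for eIF3-80S, 0.9691 and 0.9832 for Ribo-seq). The lmFit and trended eBayes functions of limma 3.58.1 (R 4.3.3), with 2 residual degrees of freedom, tested log2(RPKM + 1), two-sided, with Benjamini-Hochberg adjustment over 3839 transcripts and a threshold of 0.05. Differences on this scale understate changes of low transcripts. Groups came from the titles. For Ribo-seq control replicate 2 the description gives another replicate number than the title, and the title was used. Replicates were not duplicates (chi-square per transcript 10.0 for eIF3-80S and 147 for Ribo-seq). Deviations of libraries with equal replicate numbers had a correlation of -0.00893, which cannot show whether those libraries were paired. The rule for named transcripts took the 12 largest differences per direction among called transcripts without overlap, and 2 identifiers of each were printed. Rules on named genes and gene lists were left out because no identifier matched a symbol. The members, lists and length classes were chosen with earlier results of these data known. The groups by level, the sets by expected reads and the shares without 1 transcript were chosen after seeing the data. Alternatives changed the pseudocount, filter, scaling, test, libraries, block and length classes. Python 3.11.15 with scipy 1.17.1 was used for shares and exact tests.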

Additional observations from a re-analysis of the deposited data

How the results depend on the processing

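Counts of calls depended strongly on the processing. Signs were kept, which the lack of overlap between assays among called transcripts largely fixed in advance. Against 181 higher and 164 lower, taking unlisted transcripts as 0 gave 90 and 2724 of 9876 tested (median difference -1.73), quantile normalization 105 and 17 (86.1% higher, against 52.5%), eBayes without a trend 166 and 108 (60.6% higher), and one fit of all 20 libraries in 12 groups 10 and 1 (median -0.19). Limma-voom, run on whole reads, gave 28 higher calls and 0 lower, with 883 transcripts at an unadjusted p under 0.05 (1232 by limma on RPKM) and a median of 0.12. With the replicate block 292 were called higher and 303 lower, including all 181 and 164; the numbers are shared labels only. Leaving out 1 library, with the lone library assumed to vary like the other assay's, gave 33 to 559 higher and 1 to 446 lower. A pseudocount of 0.1 or 5, a minimum mean of 10 RPKM and no rescaling kept both counts within 1.5 times. All 345 kept their sign in each of the 14 alternatives that tested them (at the minimum of 10 RPKM 168 of the 181 were tested, and by limma-voom 163 of the 164), and 9 higher and 0 lower were called in every one. The median of coding sequences at most 600 nt moved from -1.15 to -0.51 under quantile normalization and ran from -1.36 to -0.96 without single libraries. That over 3000 nt moved from 0.88 to 0.64 with a pseudocount of 5, to 0.0462 with quantile normalization and to 1.12 with limma-voom, and ran from 0.76 to 1.07 without single libraries. Differences in read shares were -22.9 and 18.4 points, and -27.7 to -18.2 and 13 to 23.9 points without single libraries. The causes were not tested. Depth limits the eIF3-80S side, where transcripts called lower had a median of 13 reads.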

Other observations

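The most read transcripts differed between the assays. Of the 10 most read transcripts, 6 were shared between the eIF3-80S replicates and 4 between the Ribo-seq replicates, while an eIF3-80S and a Ribo-seq library shared 0 or 1. Of the 100 most read, the replicates shared 74 and 72, and libraries of different assays shared 45 to 47. The 10 most read held 20.39% and 6.66% of eIF3-80S reads, against 6.12% and 7.55% of Ribo-seq reads.

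Few transcripts that were well read in Ribo-seq were unlisted in both eIF3-80S libraries. Of 1027 transcripts with at least 20 reads expected in both eIF3-80S libraries from the lower Ribo-seq library, 4 were listed in neither and 24 in 1 of them. The 4 had coding lengths of 141 to 516 nt and 435 to 2142 Ribo-seq reads, and were at least 5.15-fold to 9.47-fold lower in eIF3-80S, with 4 reads taken as the bound in each library. All 4 were listed in the eIF3-80S library of fed Thiamet-G cells. With reads expected from fed Thiamet-G Ribo-seq instead, 18 of 1495 transcripts were listed in neither and 85 in 1. Of the 18, 7 were at most 600 nt and 4 over 3000 nt long. Listing in both was 93.0% for coding sequences of at most 600 nt (n = 517) and 83.6% for those over 3000 nt (n = 55).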
